A study of Mus musculus with 4 samples.

Results

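The receptors for IL-1, IL-18, IL-33 and IL-36, their accessory chains, the inhibitory receptor SIGIRR and the shared adaptor MyD88 were examined in Tc17 cells and CTLs. The members were the 9 genes *Il1r1*, *Il1r2*, *Il1rap*, *Il1rl1*, *Il1rl2*, *Il18r1*, *Il18rap*, *Sigirr* and *Myd88*, each read from the probe set that the array's annotation assigns to it. The annotation used here gave a probe set, 1 per gene, for 7 of the 9 members, out of 19938 genes in all. *Il1r1*, which encodes the signaling receptor for IL-1, and *Il1rl1*, which encodes the IL-33 receptor ST2, were not analysed here. Transcripts were measured on 4 whole-transcript arrays, 2 of Tc17 cells and 2 of CTLs, each an array of its own biological replicate. Both groups were CD8+ T cells of sex- and age-matched adult wild-type C57BL/6 mice, described as naive in the series' design text, that were obtained from lymph nodes and spleen by magnetic negative selection and kept in culture for 2 days with IL-2 and an antibody blocking IFN-γ. Tc17 cultures also contained TGF-β and IL-6, CTL cultures did not, and per the study's methods Tc17 cells were primed through CD3 and CD28. The priming of the CTL cultures is not given in the sources used here, nor is it stated whether the replicates came from different mice, so the p-values reflect how much these 4 cultures varied, which may be technical.

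Receptors of this family carry immunoglobulin-like domains outside the cell and a TIR domain inside it. A ligand-binding chain such as IL-18Rα or the IL-36 receptor pairs with an accessory chain, IL-18RAP for IL-18 and IL-1RAP for IL-1, IL-33 and IL-36, and the joined TIR domains recruit MyD88, which passes the signal through IRAK kinases and TRAF6 to NF-κB and MAP kinases. IL-1R2 lacks a signaling TIR domain and acts as a decoy for IL-1, and SIGIRR dampens the pathway. In T cells IL-18 is best known for raising IFN-γ together with IL-12, while IL-1 supports type 17 responses.

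The culture labels were borne out by *Il17f* (log2 difference Tc17 minus CTL 5.81) and *Ifng* (-4.25). Values are RMA intensities on a log2 scale, where a difference of 1 is a doubling, and the medians of the 4 arrays lay between 3.18 and 3.20. Differences come from limma fitted across 14953 genes, those with a mean of at least 2.59, and are called at a Benjamini-Hochberg adjusted p under 0.05. Of these genes 15.7% were called, 8.22% higher and 7.44% lower in Tc17 cells (1229 and 1113 genes). With arrays centred on their medians over the 19938 genes, not the medians over all rows given above, the balance turned, with 1026 higher and 1311 lower. That centring moved the log2 difference of *Il18r1* from 0.74 to 0.69. Since bulk RNA was measured, fewer cells with a transcript and less of it per cell cannot be told apart.

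Both chains of the IL-18 receptor were higher in Tc17 cells, the IL-36 receptor was lower, and the accessory chain *Il1rap*, the inhibitory *Sigirr* and the adaptor *Myd88* did not pass the test. Thus 3 of the 6 members tested were called, 2 higher and 1 lower, and *Il1r2* was too dim to be tested. The lower one, *Il1rl2*, passed the filter only through its CTL arrays, so these counts, and the median over them, are a description only. The median log2 difference of the 6 was 0.42, against 0.02 for all genes tested. The arrays of the groups did not overlap for all 6 tested members, as for 54.4% of all genes tested.

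**Figure D1:**
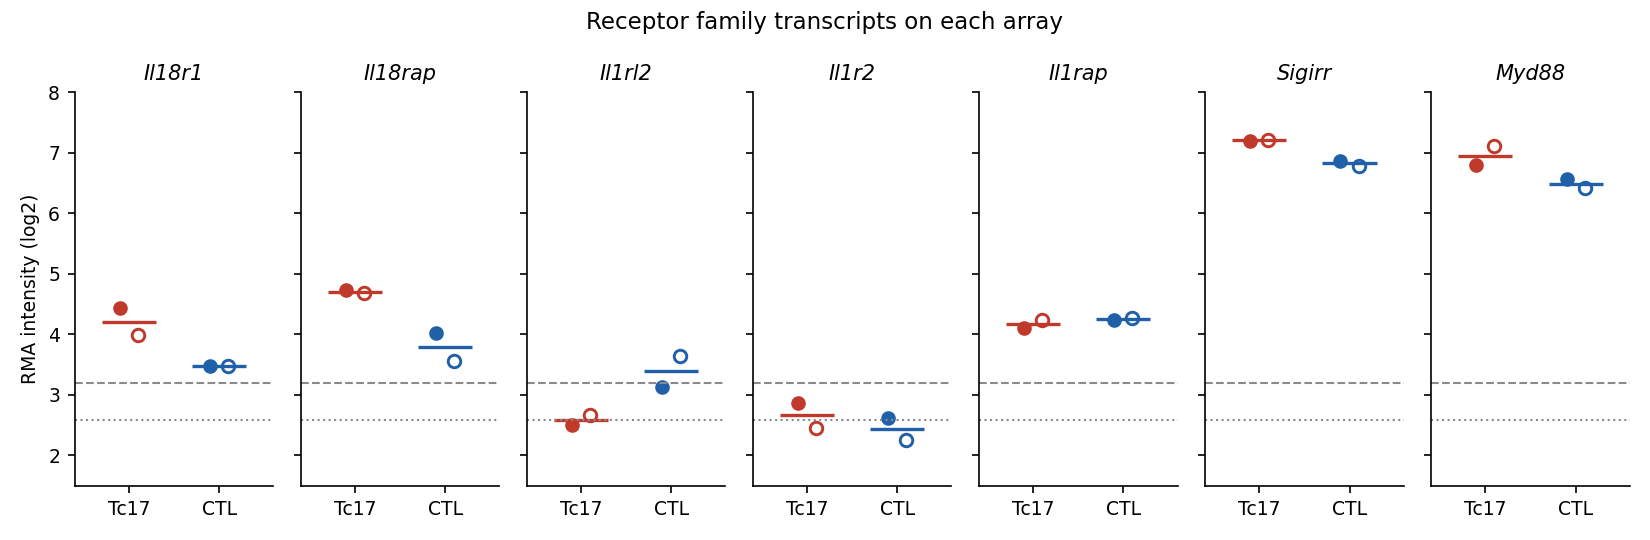
RMA intensities (log2, vertical axis) of the 7 measured members on each array, with Tc17 in red and CTL in blue. Filled circles are replicate 1, open circles replicate 2, and bars group means. The dashed line is the mean of the array medians and the dotted line the level of 2.59 under which genes were not tested. *Sigirr* and *Myd88* lie far above both lines, the group means of *Il1rl2* lie on either side of both, and *Il1r2* lies near the dotted line in both.

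The 3 genes that passed lie on mouse chromosome 1 and are transcribed from the same strand. The bases just before the first RefSeq start of each are shown so that the 2 genes that rose and the 1 that fell can be set side by side in sequence. The windows are chr1:40465419-40465551 for *Il18r1*, which begins right after the end of *Il1rl1*, chr1:40515112-40515361 for *Il18rap* and chr1:40324339-40324588 for *Il1rl2* (RefSeq, build GRCm38.p6, plus strand). Capitals mark the single match to any of 6 motifs searched on both strands.
Il18r1: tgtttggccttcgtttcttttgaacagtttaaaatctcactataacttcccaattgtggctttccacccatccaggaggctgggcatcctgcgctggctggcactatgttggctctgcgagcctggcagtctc
Il18rap: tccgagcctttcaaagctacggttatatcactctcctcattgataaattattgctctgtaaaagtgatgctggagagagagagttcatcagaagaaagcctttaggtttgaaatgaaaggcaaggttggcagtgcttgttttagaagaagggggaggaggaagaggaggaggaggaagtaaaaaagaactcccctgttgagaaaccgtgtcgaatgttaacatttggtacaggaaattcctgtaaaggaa
Il1rl2: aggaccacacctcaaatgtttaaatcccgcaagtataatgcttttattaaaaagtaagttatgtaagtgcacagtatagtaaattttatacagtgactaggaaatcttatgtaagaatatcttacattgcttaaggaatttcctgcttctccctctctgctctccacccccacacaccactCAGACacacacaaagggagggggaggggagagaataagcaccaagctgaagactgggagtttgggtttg

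The motifs were a STAT site (TTCNNNGAA), a SMAD element (CAGAC), a ROR element (AGGTCA), a T-box core (GGTGTGA), an AP-1 site (TGANTCA) and a GATA site (AGATAA), and none overlapped another. *Il1rl2* held 1 SMAD element, starting 69 bases before its start site, a motif present in 42.2% of 32851 RefSeq promoter windows of the same 250 bases. The windows of *Il18r1* and *Il18rap* held none of the 6. For *Il18r1* RefSeq gave 3 starts, and only the window before the first was searched. Among windows as long as that of *Il18r1* (133 bases) the SMAD element was found in 24.9% and the STAT site in 3.59%, against 7.02% for the STAT site in 250 bases. An absent match says only that these letters are not in the window.

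*Il18rap* encodes the accessory chain without which IL-18 does not signal. Its levels were 4.72 and 4.68 in Tc17 cells, against 4.03 and 3.56 in CTLs. Both Tc17 arrays were above both CTL arrays, and the CTL arrays differed from each other by 0.47. The mean was 4.70 ± 0.03 in Tc17 cells and 3.79 ± 0.33 in CTLs (SD, n = 2 each), a log2 difference of 0.91 ± 0.16 (SE), or 1.88-fold (limma adjusted p = 0.00266). Array by array, the difference ran from 0.65 to 1.16, more than either difference between arrays of a group. This was the largest difference of the family in size, and 4.03% of all genes tested differed by at least as much.

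*Il18r1* encodes the chain that binds IL-18. Its levels were 4.43 and 3.99 in Tc17 cells, against 3.48 and 3.47 in CTLs. The CTL arrays were nearly equal and the Tc17 arrays, both higher, were 0.44 apart. The log2 difference was 0.74 ± 0.16, or 1.67-fold (limma adjusted p = 0.00784), with array-by-array values from 0.52 to 0.96. The CTL levels of *Il18r1*, and the 3.56 of *Il18rap* in CTL replicate 2, lay near the array medians of 3.18 to 3.20. Background can compress folds at such levels. It did not pass without Tc17 replicate 1, where it was 0.52 (limma adjusted p = 0.0585, spanning 0.00298 to 0.126 across alternative settings). The intervals of *Il18r1* (95% interval 0.39 to 1.08) and *Il18rap* (0.56 to 1.26) overlapped widely, and whether the chains differed in their response was not tested.

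*Il1rl2* encodes the IL-36 receptor, better known from epithelial and dendritic cells. Its levels were 2.50 and 2.66 in Tc17 cells, against 3.14 and 3.64 in CTLs. Both Tc17 arrays were below both CTL arrays. The mean was 2.58 ± 0.11 in Tc17 cells, under the filter level, and 3.39 ± 0.36 in CTLs (SD, n = 2 each), so the gene was tested only because of its level in CTLs. The log2 level fell by 0.81 ± 0.17 in Tc17 cells (limma adjusted p = 0.00732), and array by array it ran from -1.14 to -0.47. Without CTL replicate 2 the difference was -0.55 and did not pass (limma adjusted p = 0.0551, spanning 0.00230 to 0.136 across alternative settings). Background compresses differences of such dim probe sets, and the table has no detection calls, so no fold is given.

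When every row of the value table was tested instead, the differences of these 3 genes were the same but none passed, with limma adjusted p of 0.0938 for *Il18rap*, 0.126 for *Il18r1* and 0.136 for *Il1rl2*. In that test 684 of 35557 rows were called.

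*Il1r2*, the decoy receptor for IL-1, had levels of 2.87 and 2.46 in Tc17 cells, against 2.61 and 2.26 in CTLs. The groups overlapped, and the mean over the 4 arrays (2.55) was under 2.59. Its log2 difference of 0.23 ± 0.17 was smaller than the 0.41 between the Tc17 arrays and the 0.35 between the CTL arrays. In a fit without the filter its limma adjusted p was 0.519.

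*Il1rap*, the accessory chain shared by the IL-1, IL-33 and IL-36 receptors, was the member with the smallest difference. Its levels were 4.11 and 4.23 in Tc17 cells, against 4.23 and 4.27 in CTLs. The nearest Tc17 and CTL arrays differed by only -0.00504, so the lack of overlap carries little here. The log2 difference was -0.09 ± 0.13 (limma adjusted p = 0.746), with a 95% interval from -0.37 to 0.20 that leaves out a change as large as that of *Il18rap*, the accessory chain of the IL-18 receptor.

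*Sigirr*, which encodes the inhibitory member of the family, was at a high level on every array. It had 7.19 and 7.21 in Tc17 cells, against 6.87 and 6.78 in CTLs. The Tc17 arrays were nearly equal and both above the CTL arrays, and the 4 array-by-array differences were close to each other, from 0.32 to 0.44. The log2 difference of 0.38 ± 0.13 was 1.30-fold (limma adjusted p = 0.0674) and did not pass, although it passed with cyclic loess (limma adjusted p = 0.0425) and with an intensity trend and robust moderation (limma adjusted p = 0.0439), spanning 0.0425 to 0.238 across alternative settings.

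*Myd88*, the adaptor, had 6.79 and 7.11 in Tc17 cells, against 6.56 and 6.42 in CTLs. All 4 array-by-array differences were above 0, from 0.23 to 0.69, but the Tc17 arrays were 0.31 apart. The log2 difference was 0.46 ± 0.14, or 1.38-fold (limma adjusted p = 0.0546), just outside the threshold. It passed without Tc17 replicate 1 (0.62, limma adjusted p = 0.0306, spanning 0.0306 to 0.351 across alternative settings), with a filter at the median and with an intensity trend. Neither *Sigirr* nor *Myd88* is shown to be equal in the groups, since the 95% intervals ran from 0.10 to 0.66 and from 0.14 to 0.78.

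**Figure D2:**
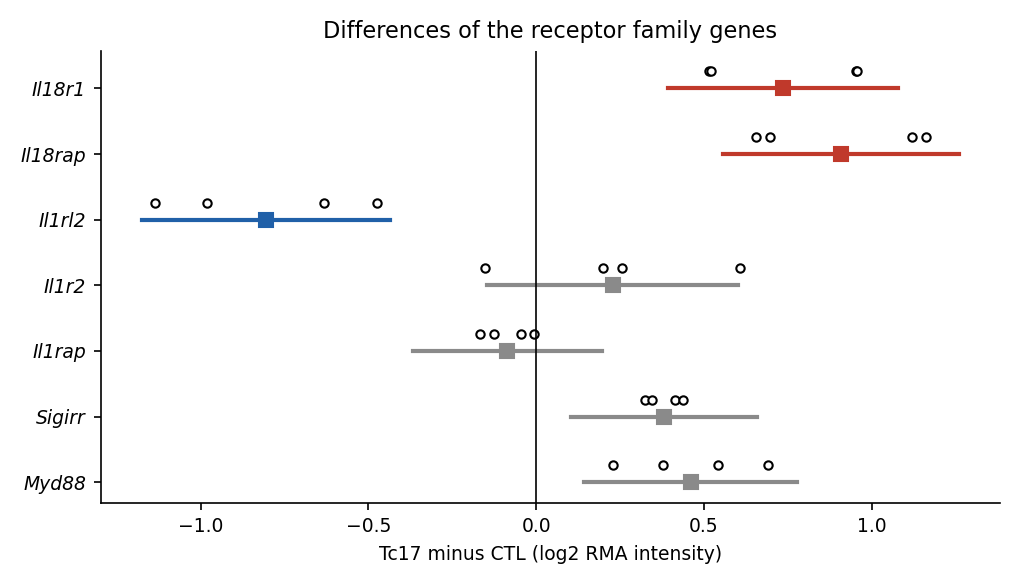
Log2 difference between Tc17 and CTL (horizontal axis) of the 7 measured members. Squares are fitted differences with 95% intervals, red where higher and blue where lower at a limma adjusted p under 0.05, grey where not called or not tested, and open circles are the 4 array-by-array differences. The IL-18 receptor chains stand at 0.74 and 0.91, *Il1rl2* at -0.81, and *Il1rap* at -0.09 has an interval that spans 0.

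Levels are given next as ranks. Within each array *Sigirr* was the brightest measured member in rank, between the 88.6th and the 92.1st percentile of all genes, followed by *Myd88* between the 85.3rd and the 91.3rd. *Il18rap* was at the 66.1st percentile on both Tc17 arrays, against the 58.9th and 53.2nd on the CTL arrays. *Il18r1* stood at the 62.8th and 58.3rd in Tc17 cells, against the 51.9th and 51.8th in CTLs, and *Il1rap* was between the 59.3rd and the 62.2nd throughout. *Il1rl2* was at the 21.8th and 27.5th in Tc17 cells, against the 44.8th and 54.6th in CTLs. These ranks describe probe set signals, which also depend on the probes, and no level of one gene was tested against another.

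Of the 9 family genes, 6 form a cluster on chromosome 1, in the order *Il1r2*, *Il1r1*, *Il1rl2*, *Il1rl1*, *Il18r1* and *Il18rap*. The direction of change was not shared along it. *Il1rl2* was lower in Tc17 cells, while *Il18r1* and *Il18rap*, side by side at one end, were higher. At the other end the next protein-coding gene, *Map4k4*, a kinase gene outside the family, had 7.82 and 7.67 in Tc17 cells, against 6.66 and 6.55 in CTLs, and rose by 1.14 ± 0.13 (limma adjusted p = 1.84e-04). Beyond *Il18rap*, the sodium-proton exchanger genes *Slc9a4* (-0.27 ± 0.14, limma adjusted p = 0.236) and *Slc9a2* (0.21 ± 0.15, limma adjusted p = 0.414) did not pass. The predicted gene *Gm3646*, which follows *Map4k4* outward, was not analysed here.

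**Figure D3:**
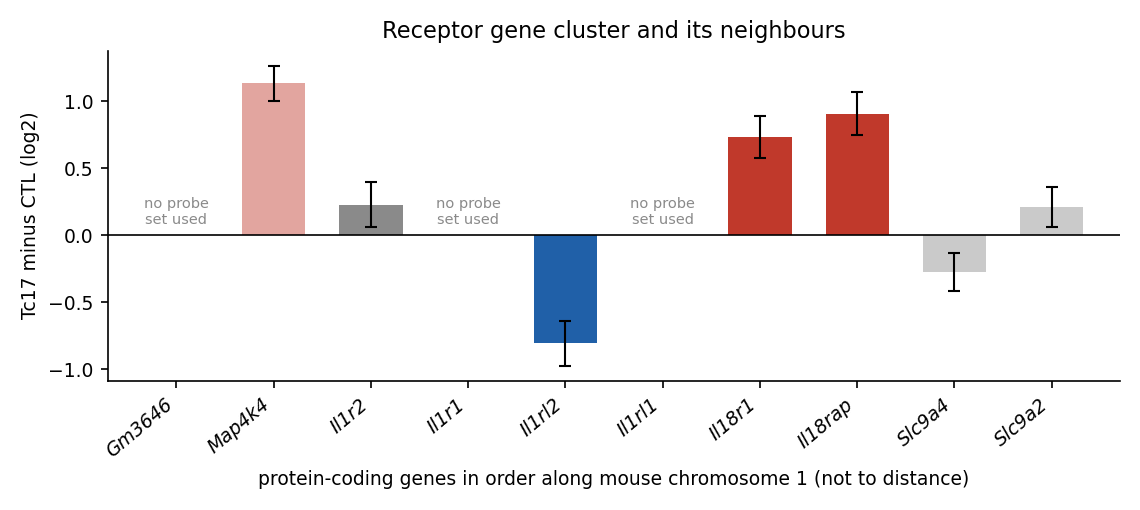
Log2 difference between Tc17 and CTL (vertical axis, bars with the standard error of the fit) for the receptor genes and the 2 nearest protein-coding genes on each side, in their order on chromosome 1. Red bars rose and blue bars fell, grey bars were not called or not tested, and paler bars are genes outside the family. *Map4k4* (1.14), *Il18r1* (0.74) and *Il18rap* (0.91) rose, *Il1rl2* (-0.81) between them fell, and genes without a bar had no probe set used here.

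Of 73 other genes of the pathway, 69 had a probe set and 51 were tested, of which 7 rose and 3 fell in Tc17 cells. This was 19.6% of those tested, near the 15.7% of all genes. None of the 4 tested ligands and antagonists was called by limma, and none had an unadjusted p under 0.05, no other tool having been run. Of the 11 measured, 10 had a mean under the lowest array median. The exception was *Il18bp*, which encodes the soluble binding protein of IL-18, at 3.84 ± 0.05 in Tc17 cells and 3.80 ± 0.28 in CTLs (SD, n = 2 each), with overlapping groups (limma adjusted p = 0.920). *Il18* itself was at 2.25 ± 0.07 in Tc17 cells and 1.96 ± 0.01 in CTLs, too dim to be tested. In a fit without the filter its log2 difference was 0.29 ± 0.12 (limma unadjusted p = 0.0334, limma adjusted p = 0.176). Of 7 tested genes for ligand processing, *Gsdmd*, the pore-forming gasdermin D, rose by 0.74 ± 0.14 (limma adjusted p = 0.00469), with 5.33 and 5.03 in Tc17 cells, against 4.50 and 4.38 in CTLs.

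Among 18 tested genes that signal after MyD88, 3 rose and 1 fell, with a median of 0.04, where 15.7% of all genes tested were called. *Peli1*, a ubiquitin ligase gene of the pathway, rose most, with 8.74 and 8.86 in Tc17 cells, against 7.87 and 7.79 in CTLs (0.97 ± 0.13, limma adjusted p = 4.44e-04). *Mapk14*, the p38α kinase gene, rose by 0.68 ± 0.13 (limma adjusted p = 0.00364). *Map2k6*, which encodes a kinase that activates p38 and was named after its value was seen, rose by 0.59 ± 0.15 (limma adjusted p = 0.0242), and did not pass when CTL replicate 1 (0.38), Tc17 replicate 1 (0.55) or Tc17 replicate 2 (0.62) was removed. *Map3k8*, the kinase gene that acts upstream of ERK, fell by 0.64 ± 0.15 (limma adjusted p = 0.0116), and did not pass on removal of CTL replicate 1 (-0.49) or Tc17 replicate 2 (-0.55). The kinase genes *Irak1* (0.04 ± 0.13) and *Irak2* (0.03 ± 0.14), and *Traf6* (-0.16 ± 0.13), had limma adjusted p of 0.883, 0.926 and 0.502. They were also named after their values were seen. *Irak4* and *Chuk*, also on this list, had no probe set used here and were not analysed.

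Feedback genes went both ways, with 2 of 13 tested rising and 2 falling and a median of 0.03. Among all genes tested, 8.22% rose and 7.44% fell. The deubiquitinase genes *Tnfaip3* (0.61 ± 0.15, limma adjusted p = 0.0173) and *Cyld* (0.58 ± 0.13, limma adjusted p = 0.0101) rose. Their calls were lost without CTL replicate 2 (0.46 for *Tnfaip3*, 0.51 for *Cyld*) and without Tc17 replicate 2 (0.49 for *Tnfaip3*, 0.56 for *Cyld*). *Nfkbia*, which encodes the NF-κB inhibitor IκBα, fell by 0.74 ± 0.13 (limma adjusted p = 0.00260), with 7.69 and 7.75 in Tc17 cells, against 8.55 and 8.38 in CTLs. *Tank* fell by 0.59 ± 0.18 (limma adjusted p = 0.0494), but its Tc17 arrays were 5.51 and 4.89, and it did not pass without Tc17 replicate 2 (-0.28), CTL replicate 1 (-0.58) or CTL replicate 2 (-0.60) or with no filter. Of 9 tested other TIR receptors and adaptors, *Tlr1*, which forms a lipopeptide receptor with TLR2, rose by 0.67 ± 0.16 (limma adjusted p = 0.0139), although it was dim, with 3.73 and 3.80 in Tc17 cells, against 2.88 and 3.32 in CTLs. It was lost without CTL replicate 1 (0.45) or Tc17 replicate 2 (0.64).

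**Figure D4:**
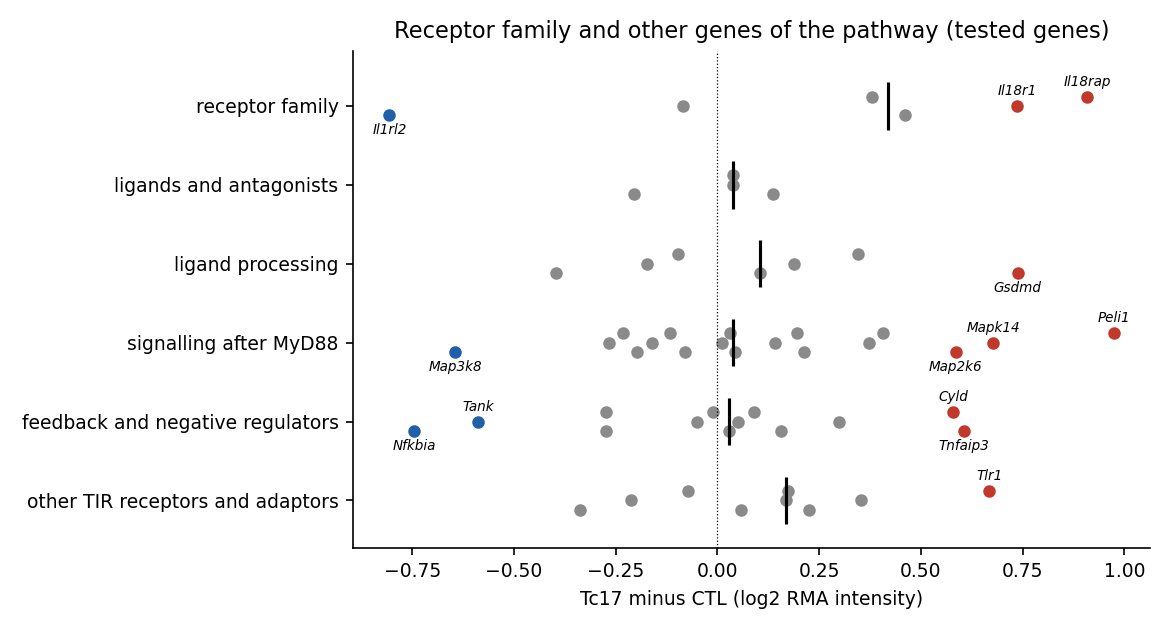
Log2 difference between Tc17 and CTL (horizontal axis) of each tested gene of the receptor family and of 5 lists of other pathway genes. Red marks genes that rose and blue those that fell (limma adjusted p under 0.05), grey marks genes without a call, and each black bar is a list's median. The median of the receptor family was 0.42, and those of the lists lay between 0.03 for feedback genes and 0.17 for the other TIR receptors and adaptors.

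Genes of other cells that carry receptors of this family were mostly dim. All 8 markers of macrophages, monocytes and neutrophils had a mean under the lowest array median, with summed log2 levels of 20.9 to 22.9 in Tc17 cells and 20.6 to 21.0 in CTLs, and of the 5 tested only *Ly6g* was called (1.58 ± 0.23, limma adjusted p = 8.50e-04). *Ly6g* had 4.38 and 3.50 in Tc17 cells, above the array medians, against 2.46 and 2.27 in CTLs, under the filter level, so it was tested only through its Tc17 arrays. Of 6 mast cell and basophil markers, *Kit* rose by 1.76 ± 0.18 (limma adjusted p = 6.26e-05), while *Cpa3*, *Fcer1a*, *Mcpt8* and *Ms4a2* were under the filter and *Gata2* did not pass. The summed level of these 6 was 17.7 to 18.4 in Tc17 cells and 16.3 to 16.6 in CTLs, and *Kit* alone accounts for the gap, since none of the other 5 differed by more than 0.19 in size. Of the 3 tested B cell, the 3 tested dendritic cell and the 1 CD4 marker none was called by limma. Among them only *Cd79b* had an unadjusted limma p under 0.05. It was above the array medians, with 5.14 and 5.02 in Tc17 cells, against 4.78 and 4.53 in CTLs (0.43 ± 0.14, limma adjusted p = 0.0619). The other 3 B cell genes measured had a mean under the lowest array median. Neither NK cell marker was bright enough to be tested. T cell genes were bright, and 4 of 5 rose in Tc17 cells, where 8.22% of all genes tested rose. Among them were *Cd3g* (1.00 ± 0.13, limma adjusted p = 3.32e-04) and *Cd8a* (0.67 ± 0.14, limma adjusted p = 0.00838). *Cd8b1* did not pass (0.20 ± 0.13, limma adjusted p = 0.361). *Foxp3*, the regulatory T cell factor, rose by 0.60 ± 0.13 (limma adjusted p = 0.00780), while *Ikzf2*, the other regulatory T cell gene listed, had a difference of -0.052 with overlapping groups (limma adjusted p = 0.912). Of the gamma delta T cell genes listed, *Trdc* and *Trgc1* had no probe set used here. *Sox13* had 3.63 and 3.51 in Tc17 cells, against 3.61 and 3.46 in CTLs (limma adjusted p = 0.911). The type 2 genes *Gata3* (by 0.73 ± 0.20, limma adjusted p = 0.0284) and *Il13* (by 0.66 ± 0.15, limma adjusted p = 0.0120) fell. *Il5*, also on that list, was under the filter, with a mean of 2.27 in Tc17 cells and 2.29 in CTLs. *Areg* had no probe set used here. The part of these genes' cells or programs in the receptor differences was not tested. With 2 arrays per group an exact permutation test cannot give a p under 0.333.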

How the data were processed

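RNA of 4 cultures (2 Tc17, 2 CTL) was amplified in cycles of cDNA synthesis, labeled with biotin and hybridised to Affymetrix arrays. The authors deposited RMA values, taken here as log2 intensities from their range of 1.18 to 13.70. RMA corrects background, equalises array distributions and summarises probes, so a shift shared by all genes cannot be seen. The sources used here give no version, settings or log base for it. Of 35557 rows, 21789 had 1 gene symbol, 1621 several and 12147 none in the platform annotation, and the brightest probe set of each of 19938 genes was used. The 4985 genes with a mean below the 25th percentile (2.59) were not tested. Groups came from the labels and were compared, Tc17 minus CTL, in limma 3.58.1 (lmFit, eBayes, R 4.3.3), unpaired, two-sided, with Benjamini-Hochberg adjustment over all 14953 genes. The fit was checked on simulated data.

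Members and gene lists were chosen with earlier results of these data known. Named were all members, of each list the 2 largest increases and 2 largest decreases called (or the brightest gene), the neighbors, and the 3 genes nearest in pattern to each called member. The label check (*Il17f* and *Ifng*) and markers were also named, and other genes after their values were seen. Promoters came from RefSeq. Alternatives were other filters, trended robust moderation, cyclic loess, median centring, mean probe sets, every row, a replicate block and leaving out each array. The number of arrays limits the precision. Tables used Python 3.11.15.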

Additional observations from a re-analysis of the deposited data

How the results depend on the processing

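Of 237 values of the 20 tested genes under the alternatives, 200 kept direction and side of the threshold. With other filters, trended robust moderation, mean probe sets, every row or a replicate block these genes kept the difference of the main fit. There only the side of the threshold could change, so the count of 200 overstates how far direction was put to the test. In a test of every row, 0 members, 684 rows and, of the lists, 0 processing, 1 signaling, 0 feedback and 0 TIR genes passed, and *Il18rap* (0.91), *Il18r1* (0.74) and *Il1rl2* (-0.81) did not pass. The cause was not tested. An intensity trend with robust moderation called 5 members, with *Sigirr* (0.38) and *Myd88* (0.46) added. *Sigirr* also passed with cyclic loess (0.42), and *Myd88* with a filter at the median (0.46), where fewer genes are tested and *Il1rl2* is left out. Without 1 array, 2 to 3 members and 1421 to 1924 genes (2342 with all arrays, 1538 without CTL replicate 1 and 1421 without Tc17 replicate 2) passed, and the differences ran from -1.06 to -0.55 for *Il1rl2*, from 0.52 to 0.96 for *Il18r1*, from 0.68 to 1.14 for *Il18rap*, from 0.34 to 0.43 for *Sigirr* and from 0.30 to 0.62 for *Myd88*. *Il1r2* ran from 0.02 to 0.43. Calls in the lists ranged from 1 to 2 for processing, 2 to 4 for signaling, 1 to 4 for feedback and 0 to 1 for the TIR list. *Il18bp*, not called, changed sign with cyclic loess (-0.021) and median centring (-0.014) and ran from -0.16 to 0.24 without 1 array. A fit without an array assumes that the lone array of its group varies like the other group. With a replicate block 3 members and 2322 genes passed, and no member's call changed. Deviations of arrays with the same number were nearly uncorrelated across genes (0.02). With 2 arrays per group this cannot tell whether they shared a mouse or a day, which was not tested.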

Other observations

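For each called member, the 3 tested genes nearest in pattern were found by the Euclidean distance between log2 values centred over the 4 arrays. For *Il18rap* these were *Ski* (distance 0.0660), which encodes a repressor of TGF-β signaling, *Mus81* (0.114), a DNA repair nuclease gene, and *Pdgfb* (0.123), a growth factor gene. *Ski* had 6.52 and 6.48 in Tc17 cells, against 5.76 and 5.28 in CTLs. For *Il18r1* they were *Mettl27* (0.0384), *Snx32* (0.0477) and *Uap1l1* (0.0721). For *Il1rl2* they were *Slc14a1* (0.0983), a urea transporter gene, *Pus7l* (0.123) and *Epsti1* (0.164), an interferon-induced gene that had 4.22 and 4.38 in Tc17 cells, against 5.04 and 5.36 in CTLs. With 4 arrays and 14953 genes, close patterns are a description of these arrays and no more.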
